A study of Mus musculus with 4 samples.

Results

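The nuclei annotated as vascular endothelial cells (VECs), the cells that line blood vessels, numbered 351 of 32552 nuclei (1.08%) in a single-nucleus ATAC-seq survey of inguinal white adipose tissue (iWAT), a subcutaneous fat depot of the mouse. Membership was taken from the cluster name that the authors gave each nucleus. Nuclei of whole iWAT were used, with no sorting of cell types, and 12 annotated clusters were found. ATAC-seq reports open chromatin, because the transposase cuts DNA where it is accessible. In the deposited matrix an entry is 1 where a nucleus had a read in a peak and 0 otherwise, so a count here is a nucleus in which a peak was open, summed over peaks and nuclei. A library is the sum over the VEC nuclei of 1 mouse. Accessibility is given as CPM, the counts of a gene or peak scaled to the library's total over genes or over peaks.

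Male C57BL/6 mice, 8 weeks old on the labels, had been kept at room temperature (22 °C) for 14 days before the intervention. They were sampled at day 0 (day0RT), exposed to cold (6.5 °C on the sample labels) for 1, 3 or 7 days (day1C, day3C and day7C), or treated with CL-316,243 (CL), an agonist of the β3-adrenergic receptor, at 1 mg/kg for 1, 3 or 7 days (day1CL, day3CL and day7CL). Each of the 7 groups had 3 mice. No animal carried a transgene or a deletion on the labels, and the treated groups are compared with 1 set of day0RT mice.

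The depth of VECs was low. A VEC nucleus had a median of 1072 counts, from 130 to 17517, against 1182 over all nuclei. The VEC nuclei held 614132 peak counts and, after peaks were assigned to genes, 521986 gene counts. A mouse had from 3 to 53 VEC nuclei. Of the 21 mice, 15 had at least 10 and gave a library, with 6689 to 98092 gene counts. In the smallest of these libraries 1 count equals 149 CPM. Only 1 of the 3 day0RT mice gave a library.

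Samples and nuclei stood apart in 2 ways before any comparison. In 3 mice lymphocytes (B cells and the 3 T cell clusters) were far fewer than in the other mice, at 11.9% of nuclei in day1CL mouse 3, 14.1% in day3CL mouse 2 and 36.8% in day3C mouse 1. These 3 mice held 119 (33.9%) of the VEC nuclei. In addition, 112 VEC nuclei (31.9%) carried a barcode that was also found in another mouse, against 26.8% of all nuclei, and for 10 of the 112 the nucleus in the other mouse was a VEC too. All 136 such pairs were in mice with the same replicate number. The last 8 of the 32 bases of a barcode took 24 forms, 8 for each replicate number and 0 in more than 1, so a barcode could be shared only between mice of the same number. Values without these nuclei are given for the markers *Pecam1*, *Flt1* and *Kdr*, the lists, the rankings, the VEC share and the treatments, and were not computed for single peaks of the markers, leading-peak shares or motifs.

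Endothelial cells respond to vascular endothelial growth factors (VEGFs) through the tyrosine kinase receptors FLT1 (VEGFR1), KDR (VEGFR2) and FLT4 (VEGFR3), and they are held together by junction proteins such as PECAM1, VE-cadherin (*Cdh5*) and claudin-5. Their identity is maintained by transcription factors of the ETS family, such as ERG and FLI1, together with SOX17 and its relatives, GATA2 and KLF2. In adipose tissue the capillary endothelium passes fatty acids and hormones to and from adipocytes, and its growth accompanies growth and browning of the depot.

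Some of the regions with the largest ratio of VECs to every other cluster are shown first, as sequences, because the motifs counted further below can be read in them. Each line gives the 300 bases centred on a peak, on the plus strand of mm10, from the RefSeq sequence of GRCm38.p6, with matches to a searched motif in capitals on either strand. The first 4 were among the 10 peaks with the largest ratio. Of the 9 of these whose sequence was written out, 4 held a match to any of the 11 motifs and are printed, and the other five held none. The Adgrf5 region (chr17:43366550-43366849) lies in an intron of *Adgrf5*, 6248 bases from the gene start, and holds a SOX match. The Snrk region (chr9:122064945-122065244) is intergenic, at −52172 bases from the start of *Snrk*, with an ETS match. The Nova2 region (chr7:18948093-18948392) lies in an intron of *Nova2* and holds a KLF and an AP-1 match. The Egfl7 region (chr2:26578433-26578732) lies at −1432 bases from the start of *Egfl7*, which encodes a protein secreted by endothelium, with 2 ETS matches, a SOX match and a FOX-ETS match that overlaps the second ETS match.
Adgrf5 region: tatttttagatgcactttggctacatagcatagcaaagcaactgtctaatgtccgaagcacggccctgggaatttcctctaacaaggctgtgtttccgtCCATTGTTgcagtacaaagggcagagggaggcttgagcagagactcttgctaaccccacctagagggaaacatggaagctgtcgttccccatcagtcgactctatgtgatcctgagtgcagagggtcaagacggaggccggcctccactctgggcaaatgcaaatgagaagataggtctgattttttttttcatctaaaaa
Snrk region: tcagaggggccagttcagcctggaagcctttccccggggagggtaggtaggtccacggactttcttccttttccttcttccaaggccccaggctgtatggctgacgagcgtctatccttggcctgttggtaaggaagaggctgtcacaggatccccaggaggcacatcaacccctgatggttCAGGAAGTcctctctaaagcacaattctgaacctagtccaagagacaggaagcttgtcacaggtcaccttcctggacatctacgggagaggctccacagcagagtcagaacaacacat
Nova2 region: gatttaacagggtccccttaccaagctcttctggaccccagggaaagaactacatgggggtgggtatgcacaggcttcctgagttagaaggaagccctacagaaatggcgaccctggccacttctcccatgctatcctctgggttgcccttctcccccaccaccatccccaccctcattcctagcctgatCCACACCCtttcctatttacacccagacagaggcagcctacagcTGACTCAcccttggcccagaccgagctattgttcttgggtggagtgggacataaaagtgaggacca
Egfl7 region: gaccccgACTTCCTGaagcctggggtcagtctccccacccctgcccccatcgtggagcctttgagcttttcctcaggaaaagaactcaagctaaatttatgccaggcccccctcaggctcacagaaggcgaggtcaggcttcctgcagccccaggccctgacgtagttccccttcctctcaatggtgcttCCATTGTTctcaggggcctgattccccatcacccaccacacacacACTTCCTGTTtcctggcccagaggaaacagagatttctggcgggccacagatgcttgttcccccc

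A pair of regions inside *Kdr* are added, chosen after their values were seen, because their VEC counts were far above those of every other cluster and they hold motif matches. Of the 4 *Kdr* peaks at least 2-fold above every other cluster, 3 held a match. Other vascular markers were searched in the same way. Such peaks of *Pecam1*, *Erg*, *Tek* and *Cldn5* held none, and at *Flt1* only the peak 74353 bases from the start did. Those of *Cdh5*, *Tie1* and *Emcn* held matches, and the promoter of *Flt1* held none. The first printed *Kdr* region (chr5:75962134-75962433) centres 16175 bases from the gene start and holds overlapping FOX-ETS and ETS matches and a GATA match. The peak overlaps an exon. The second (chr5:75974632-75974931) is intronic, 3677 bases from the start, with 2 FOX-ETS matches. The promoter of *Kdr* is given on the minus strand, the strand of the gene, as the 250 bases before the start (chr5:75978456-75978705), and holds an RBPJ match. RBPJ is the DNA-binding partner of the Notch receptors.
Kdr region at 16175: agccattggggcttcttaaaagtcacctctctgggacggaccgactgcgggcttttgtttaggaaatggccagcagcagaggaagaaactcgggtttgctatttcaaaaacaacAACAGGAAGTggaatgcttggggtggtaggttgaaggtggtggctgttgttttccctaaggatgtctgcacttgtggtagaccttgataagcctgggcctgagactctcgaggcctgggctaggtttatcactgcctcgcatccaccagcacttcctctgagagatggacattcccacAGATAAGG
Kdr region at 3677: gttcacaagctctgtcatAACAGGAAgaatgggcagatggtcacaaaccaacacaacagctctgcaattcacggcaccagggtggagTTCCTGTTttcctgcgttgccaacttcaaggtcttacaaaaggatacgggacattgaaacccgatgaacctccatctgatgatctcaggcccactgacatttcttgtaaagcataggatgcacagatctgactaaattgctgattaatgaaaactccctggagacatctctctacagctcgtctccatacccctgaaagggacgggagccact
Kdr promoter: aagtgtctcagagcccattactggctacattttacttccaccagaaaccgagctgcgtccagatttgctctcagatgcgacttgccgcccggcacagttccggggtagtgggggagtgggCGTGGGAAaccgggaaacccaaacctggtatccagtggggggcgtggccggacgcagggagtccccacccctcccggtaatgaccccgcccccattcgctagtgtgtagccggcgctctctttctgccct

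The label of the cluster was compared with its markers. The VEGF receptors *Flt1* and *Kdr* come first. *Flt1* (ENSMUSG00000029648, chr5:147561604-147726011) had 296 ± 134 CPM in VECs (SD, n = 15 libraries), with a lowest library of 130, a median of 266 and a highest of 582. The next cluster was dendritic cells, at 68.1 ± 49.7 CPM (SD, n = 17). Among the clusters of a mouse, VECs had the highest *Flt1* in 14 of 15 mice, and at least 1 *Flt1* peak was open in 27.4% of VEC nuclei and 8.42% of dendritic cell nuclei, whose median depths were 1072 and 1335 counts. *Kdr* (ENSMUSG00000062960, chr5:75932827-75978458) had 164 ± 84.3 CPM in VECs (SD, n = 15), from 0 through a median of 140 to 320. Macrophages were next, at 47.4 ± 28.3 CPM (SD, n = 21), and VECs were again the highest in 14 of 15 mice. With the nuclei of shared barcodes left out, *Flt1* had 249 ± 177 CPM and *Kdr* 182 ± 140 CPM, against 72.2 CPM and 52.3 CPM in the same next clusters. The single VEC library without a *Kdr* count rests on few counts, as each gene had only 148 (*Flt1*) or 93 (*Kdr*) counts in all VEC nuclei.

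*Pecam1* as a whole gene did not set VECs apart. *Pecam1* (ENSMUSG00000020717, chr11:106654217-106750628) had 482 ± 147 CPM in VECs (SD, n = 15), with a lowest library of 244, a median of 459 and a highest of 866. CD4 T cells had 465 ± 58.6 CPM (SD, n = 20) and CD8 T cells 407 CPM. VECs were the highest cluster for *Pecam1* in 7 of 15 mice, and the levels in VECs and CD4 T cells differed by less than the spread between libraries. When the nuclei with shared barcodes were left out, *Pecam1* had 382 ± 199 CPM in VECs, and CD4 T cells were higher. PECAM1 is known to be carried by leukocytes as well as by endothelium.

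The peaks of the gene did not share this pattern. Of the 32 peaks assigned to *Pecam1*, 7 were highest in VECs and 3 were at least 2-fold above every other cluster. The 3 peaks lay inside the gene. The first (chr11:106737198-106737612, intron) had 38.4 CPM in VECs and 3.7 CPM in B cells, the next cluster. The second (chr11:106715146-106715421, at an exon) lies at the start of an annotated *Pecam1* transcript and had 30.4 CPM in VECs and 4.5 CPM in the VSMC cluster (annotated as vascular smooth muscle). The third (chr11:106659577-106660140, intron) had 62.6 CPM against 24.1 CPM in adipocyte progenitors of the APC2 cluster. The peak over the first annotated start of the gene went the other way, with 13.5 CPM in VECs and 70.7 CPM in CD4 T cells. The 3 VEC-leading peaks held 76 of the 247 *Pecam1* counts of VECs (30.8%).

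At *Flt1*, 9 of 19 peaks were at least 2-fold above every other cluster, and they held 80.4% of the gene's VEC counts. The peak at the start (chr5:147725502-147726321) had 43.6 CPM in VECs against 9.56 CPM in APC2. The largest ratio at *Flt1* was 18.8-fold, at an intronic peak 95425 bases into the gene (27.3 CPM against 0.504 CPM). At *Kdr* all 5 peaks were highest in VECs and 4 were at least 2-fold above the next cluster. The exonic peak at 16175 bases printed above had 22.7 ± 30.9 CPM (SD, n = 15) in VECs and 0.79 CPM in beige adipocytes, and was open in 19 VEC nuclei of 13 mice. The intronic peak at 3677 bases had 21.5 ± 31.4 CPM (SD, n = 15) and 0.425 CPM in macrophages, and was open in 13 VEC nuclei of 9 mice. The *Kdr* promoter peak had 29 CPM against 10.3 CPM in macrophages. The printed peaks were chosen for their ratio, so no order among the *Kdr* peaks is read from it. With so few counts, many libraries had no count at a given peak, and at the pair of printed peaks the SD exceeds the mean.

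**Figure D1:**
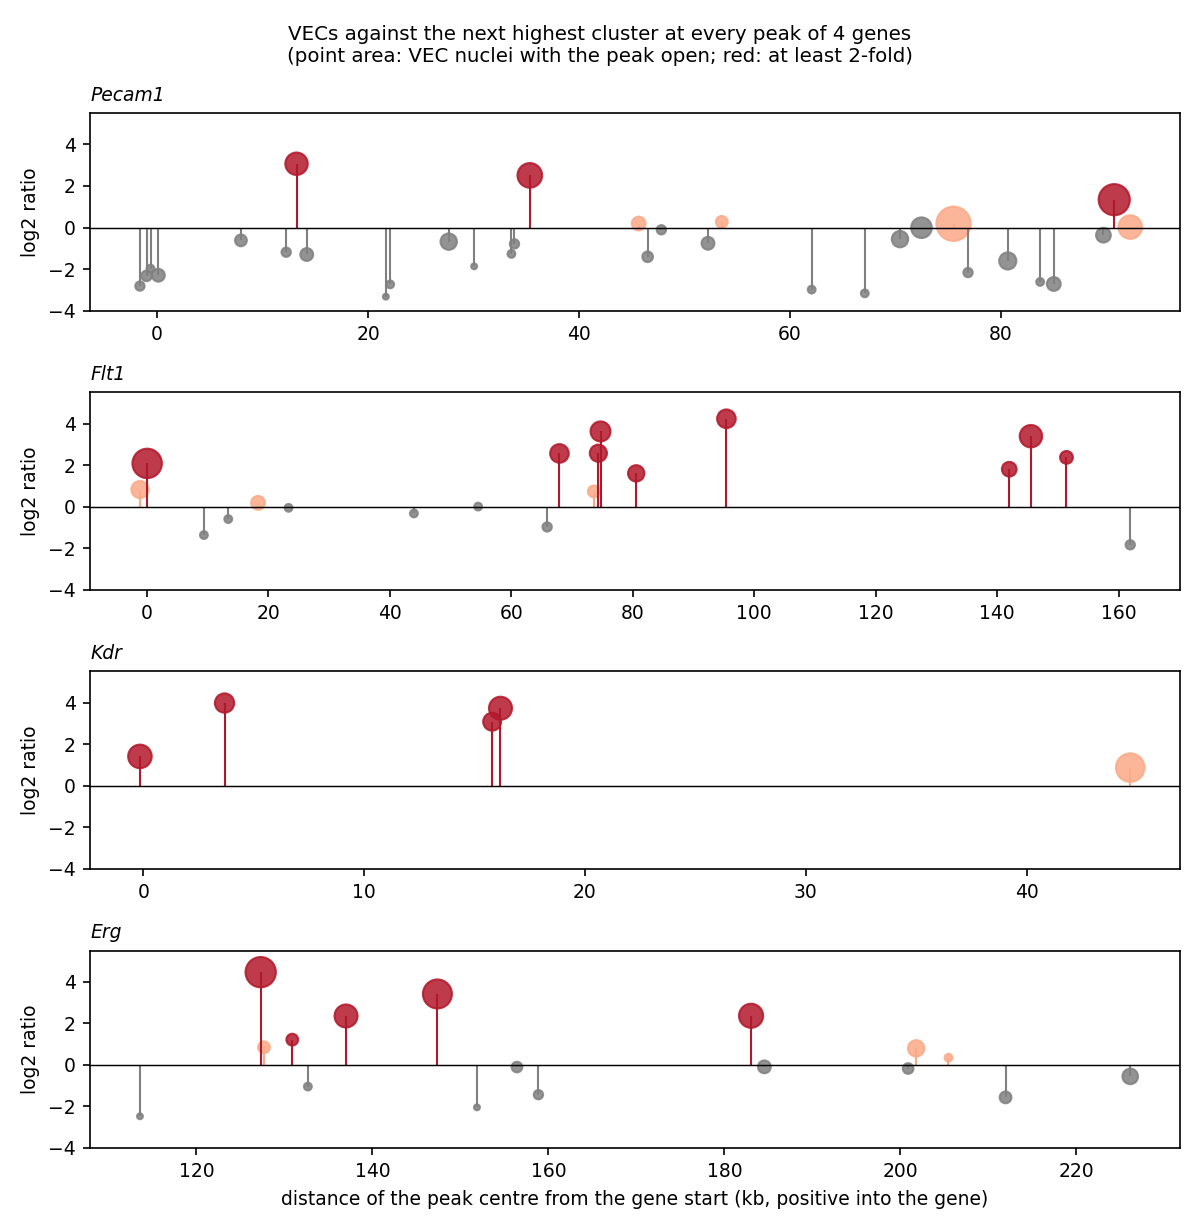
Log2 ratio of the VEC mean to the highest other cluster mean (1 CPM added to both) at every peak of *Pecam1*, *Flt1*, *Kdr* and *Erg*, by distance from the gene start in kb. Point area grows with the number of VEC nuclei with the peak open, red marks at least 2-fold and light red any other ratio above 0. At *Pecam1* 3 of 32 peaks are red, at *Flt1* 9 of 19, at *Kdr* 4 of 5 and at *Erg* 5 of 17.

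Of the 14 vascular endothelial markers listed, 12 were highest in VECs, and the median log2 ratio of the VEC mean to the highest other cluster was 1.74. Over all 17196 genes with a peak, 1521 (8.85%) were highest in VECs and the median was −0.99. The list is the one by which such cells are recognised, and clusters were made from the same peaks, so these ratios are descriptions with no test. *Tie1*, an endothelial receptor kinase, had 28.9 CPM in VECs and 1.7 CPM in beige adipocytes, the next cluster. *Emcn*, a sialomucin of capillaries and veins, had 25.5 CPM against 1.11 CPM in dendritic cells, and *Cldn5* (claudin-5) 63.6 CPM against 14.6 CPM in white adipocytes. These rest on 21, 12 and 28 counts. *Eng*, a co-receptor for BMP ligands, had 199 CPM against 82.2 CPM in APC2.

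The 2 exceptions were *Cdh5* and *Tek*. *Cdh5* had 90.8 CPM in VECs and 108 CPM in macrophages as a whole gene. Its peak at the start (chr8:104101434-104101719), however, had 39 CPM in VECs and 6.79 CPM in the VSMC cluster, the next, while the peaks inside the gene were higher in macrophages or in the VSMC cluster. *Tek*, the receptor for angiopoietins, had 84.7 CPM in VECs and 140 CPM in the APC1 progenitors. A pair of its 11 peaks, 87777 and 90847 bases from the start, were 4.42-fold and 7.5-fold higher in VECs than in the next cluster. Of the genes for which single peaks were examined, *Erg* had 5 of 17 peaks at least 2-fold above every other cluster, holding 73.2% of its VEC counts.

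Markers of other cell types were low in VECs. None of the measured members of the mural, adipocyte, progenitor, macrophage, dendritic, B cell, T cell, Schwann or mesothelial lists was highest in VECs. *Cd3e*, a chain of the T cell receptor complex, had 7.22 CPM in VECs and 124 CPM in CD8 T cells. *Cd8a*, *Lyz2*, *Myh4*, *Sox10* and *Wt1* had no VEC count, which allows up to 3 counts over all VEC nuclei. The B cell list summed to 779 ± 427 CPM in VECs (SD, n = 15) against 2601 CPM in B cells, and 354 of its 429 VEC counts were from *Ebf1*, a factor also of stromal cells. The T cell list summed to 247 ± 144 CPM (SD, n = 15) against 2368 CPM in CD4 T cells, with *Tcf7* the most abundant. The adipocyte list summed to 643 ± 217 CPM (SD, n = 15) against 2184 CPM in white adipocytes, with *Pparg* the most abundant, and the progenitor list to 426 ± 183 CPM against 1491 CPM in APC1. The macrophage list summed to 190 ± 109 CPM against 515 CPM in macrophages, the dendritic list to 248 ± 169 CPM against 998 CPM in dendritic cells and the mural list to 325 ± 185 CPM against 1108 CPM in APC2. The skeletal muscle list summed to 126 CPM in VECs and 1877 CPM in the VSMC cluster, and 1 of its 9 genes, *Myog*, was highest in VECs, by 1.07-fold on 9 counts. The Schwann list summed to 59.8 CPM and the mesothelial list to 24 CPM. Of the mesothelial genes 1 was highest in VECs without the nuclei with shared barcodes, and 1 without the 3 mice with few lymphocytes.

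Lymphatic endothelial markers gave few counts. *Prox1*, the factor that defines lymphatic endothelium, had 14 counts in 351 nuclei, *Lyve1* 4 and *Ccl21a* 0. *Flt4* had 26 counts and 76.3 CPM, against 13.6 CPM in the VSMC cluster. Of the 7 lymphatic genes 3 were highest in VECs (*Prox1*, *Flt4* and *Lyve1*), so a few lymphatic nuclei among the VECs could not be told apart at this depth. Of the 6 high endothelial venule genes, *Glycam1*, *Chst4* and *Ackr1* had no peak, and none of the other three was highest in VECs.

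Among 6431 genes with at least 30 VEC counts, 862 (13.4%) were highest in VECs and 66 (1.03%) were at least 2-fold above every other cluster. The median log2 ratio was −0.58. The 20 genes with the largest ratio, which are a description of the cluster, were led by *Nova2*, which encodes an RNA-binding splicing factor of neurons and endothelium. *Nova2* had 143 ± 94.6 CPM (SD, n = 15) in VECs, with a lowest library of 0, a median of 140 and a highest of 277. APC2 was next at 15.5 CPM, which is 8.68-fold lower with 1 CPM added to both. *Robo4*, an endothelial guidance receptor, had 66.2 ± 50.7 CPM against 8.25 CPM in macrophages. *Podxl*, a sialomucin of the vessel lumen, had 103 ± 49.6 CPM against 13.9 CPM in APC2, and 14 of 15 VEC libraries were above the highest APC2 library.

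Of the transcription factors among the 20, *Gata2* had 91.3 ± 61.5 CPM (SD, n = 15) in VECs and 17.3 CPM in white adipocytes, and *Erg* 281 ± 109 CPM against 69.2 CPM in B cells. For *Erg* 14 of 15 VEC libraries lay above the highest B cell library. *Sox17*, which marks arterial endothelium, had 55.2 ± 48.8 CPM against 15.6 CPM in APC1, but only 1 VEC library was above the highest APC1 library. *Gpr182*, a scavenging receptor of chemokines, *Epha2*, a receptor for ephrins, and *Adgrg1*, an adhesion G protein-coupled receptor, were 5.08-, 4.22- and 3.75-fold above the next cluster. *Ptprb*, the phosphatase VE-PTP that acts on TIE2 and VE-cadherin, was 3.29-fold above APC2, and its neighbour *Ptprr* 3.3-fold. *Arap3*, a GTPase-activating protein for RHOA and ARF6, was 3.51-fold above dendritic cells and was the highest in VECs in 14 of 15 mice. The others, *6330409D20Rik*, *Ablim3*, *Shank3*, *Gm29797*, *Dcbld1* and *Eva1a*, were 3.93- to 5.25-fold above the next cluster. *Flt1* ranked 9 and *Kdr* 17, and *Pecam1* ranked 725 of 6431. The next cluster varied. Over the 66 genes it was APC2 for 16, macrophages for 10 and APC1 for 10. Without the nuclei with shared barcodes 69 genes were at least 2-fold above every other cluster and 18 of the leading 20 remained, and without the 3 mice with few lymphocytes 62 and 18.

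**Figure D2:**
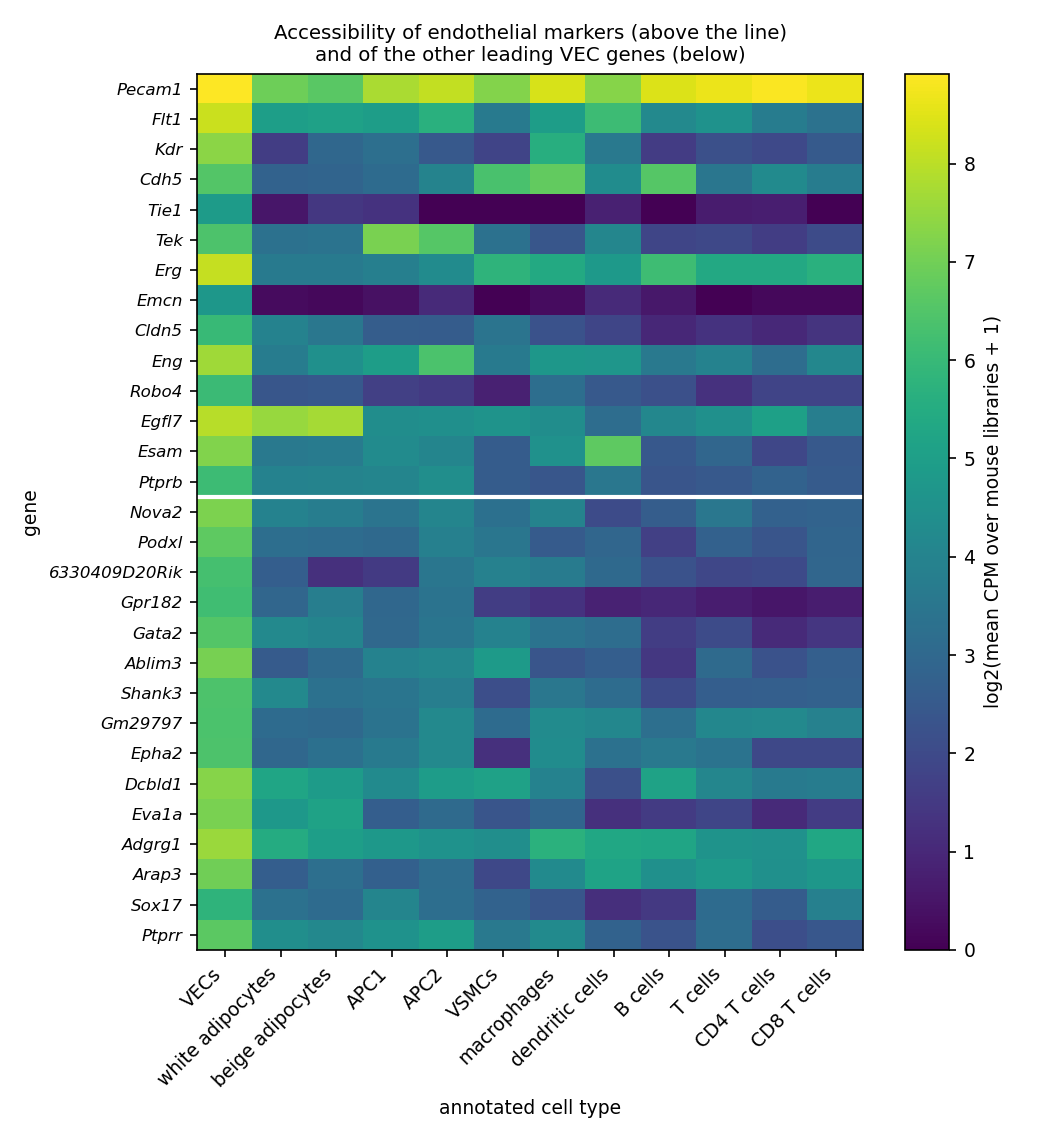
Mean accessibility, as log2(CPM + 1) over mouse libraries, of the 14 endothelial markers (above the white line) and of the other leading VEC genes (below) in the 12 annotated cell types. The VEC column is the brightest in every row except *Cdh5* (macrophages) and *Tek* (APC1), and the *Pecam1* row is bright in CD4 T cells too (482 CPM in VECs, 465 CPM in CD4 T cells).

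Counts of list members that were highest in VECs are to be read beside the 8.85% of all genes with a peak, or the 13.4% of those with at least 30 counts, that were highest in VECs. Without the nuclei with shared barcodes the counts of the lists moved by at most 2, and 11 of the 14 vascular markers and 10 of the 18 junction genes were highest in VECs. Without the 3 mice with few lymphocytes they moved by at most 2 as well, with 4 of the 13 Notch genes. Receptors and ligands of the VEGF family were split between clusters. *Flt1*, *Kdr* and *Flt4* were the highest in VECs, whereas the co-receptors were not. *Nrp1* had 311 CPM in VECs and 402 CPM in beige adipocytes, and *Nrp2* 370 CPM against 390 CPM. None of the 5 ligand genes was the highest in VECs. *Vegfa* had 96.8 ± 56.1 CPM (SD, n = 15) in VECs and 225 CPM in white adipocytes, and *Pgf* 6.59 CPM against 72.2 CPM in the VSMC cluster. *Vegfd* was highest in APC1 (116 CPM) and *Vegfc* in APC2 (63 CPM). In the angiopoietin system *Tie1* and *Ptprb* were highest in VECs, and the ligands *Angpt1*, *Angpt2* and *Angpt4* were highest in white or beige adipocytes, with *Angpt1* at 409 CPM in white adipocytes and 100 CPM in VECs.

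Of 13 genes of the Notch pathway, 6 were highest in VECs. The receptor *Notch1* had 424 ± 151 CPM (SD, n = 15) against 226 CPM in T cells, and *Dll4*, the ligand of arterial and tip cells, 93.8 ± 72.4 CPM against 39.3 CPM in APC2. *Notch4*, *Dll1*, *Hey1* and *Hes1* were the highest by 1.07- to 1.28-fold, within the spread between libraries. *Rbpj* was highest in dendritic cells (567 CPM, against 178 CPM in VECs). Of 27 measured endothelial transcription factors, 11 were highest in VECs. They included all 3 SOX genes of the list (*Sox7*, *Sox17* and *Sox18*, 2.55- to 3.38-fold) and *Tal1* (4.76-fold, on 27 counts). *Epas1*, the hypoxia-inducible factor HIF2A, had 393 CPM against 286 CPM in beige adipocytes. The ETS factors *Fli1* and *Ets1*, which lymphocytes also use, were highest in CD8 T cells (579 CPM against 486 CPM in VECs) and CD4 T cells (899 CPM against 604 CPM). *Klf2*, the factor induced by blood flow, had 91.5 CPM in VECs and 130 CPM in B cells. *Etv2* had no VEC count.

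Genes of junctions were mostly highest in VECs, at 12 of 18, with a median log2 ratio of 0.53. *Jam2* and *Jam3*, junctional adhesion molecules, were 3.27- and 2.66-fold above APC2. Of 16 genes of lipid uptake 5 were highest in VECs, with a median of −0.51. *Gpihbp1*, which carries lipoprotein lipase across capillary endothelium, had 34 ± 52 CPM (SD, n = 15) in VECs and 2.58 CPM in APC2, on 17 counts. *Scarb1*, the receptor for high-density lipoprotein, had 242 CPM against 151 CPM in white adipocytes. *Lpl*, *Cd36*, *Fabp4* and *Pparg* were higher in adipocytes. Among capillary genes 6 of 10 were highest in VECs, among them *Cd300lg* (287 ± 131 CPM against 136 CPM in APC2) and *Btnl9* (38.9 CPM against 2.72 CPM in dendritic cells). The count was 6 of 14 for arterial genes, with *Efnb2* at 128 CPM against 73.2 CPM in dendritic cells, and 1 of 9 for venous genes, a share near the background, where *Ephb4* had 159 CPM against 81.2 CPM in APC2. The arterial and capillary lists share *Sox17*, *Dll4* or *Kdr* with other lists, so the counts are not independent.

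In the TGF-beta and BMP list 4 of 13 genes were highest in VECs, with *Eng* and *Id1*, a direct target of BMP signalling, at 2.4- and 2.2-fold. Of 17 vasoactive genes 2 were, a share near the background of 8.85% to 13.4%. They were *Ednrb*, the endothelin receptor of endothelium, at 83.9 CPM against 34.8 CPM in macrophages, and *Ramp2*, at 111 CPM against 97.8 CPM in APC1. *Nos3*, endothelial nitric oxide synthase, had 33.7 CPM in VECs and 135 CPM in white adipocytes. Of 8 haemostasis genes *Thbd* and *F8* were highest in VECs, each by less than the spread, and *Vwf* was highest in dendritic cells (196 CPM, 65.9 CPM in VECs). *Hspg2* (perlecan) and *Col4a2* were the 2 of 11 basement membrane genes that were highest in VECs, *Hspg2* at 383 CPM against 208 CPM in the VSMC cluster, and this share too is little above the background. Of 10 tip cell genes 3 were highest, with *Pdgfb*, the ligand that recruits mural cells, at 170 CPM against 97.1 CPM. None of 8 proliferation genes was, and *Mki67* had 54.2 CPM in VECs and 97.8 CPM in macrophages.

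Peaks were ranked in the same way. Of all 189598 peaks, 124237 (65.5%) were open in at least 1 VEC nucleus and 7310 in at least 20. Of these 7310, 2005 (27.4%) were highest in VECs and 518 (7.09%) were at least 2-fold above every other cluster. The 518 peaks are called VEC-leading. The first, intergenic on chromosome 17 (chr17:67512748-67513040), had 65.3 ± 67.2 CPM (SD, n = 15) in VECs and 0.668 CPM in CD8 T cells, and was open in 8.83% of VEC nuclei and 0.0528% of all other nuclei. The *Egfl7* peak (chr2:26578388-26578777) was open in 40 VEC nuclei of 15 mice, with 89.9 ± 49.9 CPM and no VEC library at 0. Its libraries ran from 13.4 through a median of 75.1 to 214 CPM, and the highest library of the next cluster, T cells, had 18.4 CPM. *Egfl7* as a whole gene was 1.2-fold above beige adipocytes. The fifth peak (chr16:95459043-95459527) overlaps an exon of *Erg* 18 bases from the start of an annotated transcript, and had 55.9 ± 37.2 CPM in VECs and 1.58 CPM in B cells. The peaks in *Adgrf5* and *Nova2* and upstream of *Snrk* had 44.6, 29.5 and 63.7 CPM in VECs and at most 1.94 CPM in any other cluster. The remaining 4 of the leading 10 lay in introns of *Lnx1*, *Sema6a* and *Kcnj15* and near *Tcf15*.

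VEC-leading peaks lay far from gene starts more often than other peaks open in VECs. Of the 518, 23.9% were within 2000 bases of a transcript start, against 82.8% of the other 6792 peaks open in at least 20 VEC nuclei and 17.4% of all peaks. Their median distance was 14370 bases, against 114 bases for those other peaks. Distance from starts was shared by the leading peaks of the other 11 clusters, of which 7.61% (T cells) to 23.7% (VSMCs) were within 2000 bases. Their median GC content was 52.7%, against 65% for the other peaks open in VECs and 47.7% for all peaks.

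The order of the leading peaks rests on few nuclei. Without the nuclei with shared barcodes 6 of the 10 remained among the leading 10, and without the 3 mice with few lymphocytes 5.

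The share of counts in VEC-leading peaks is given for its spread among the VEC libraries and nuclei. It was 2.31% ± 0.616 over the 15 VEC libraries, with a lowest of 1.15%, a median of 2.34% and a highest of 3.44%. The other 11 clusters had means of 0.12% (B cells) to 0.318% (APC2). The peaks were selected for being higher in these VEC libraries, so a gap to the other clusters was fixed by the choice and supports nothing about the cluster. The 2 lowest VEC libraries were day1CL mouse 2 (1.15%) and day7CL mouse 1 (1.37%). The same libraries had the lowest sums of the 14 vascular endothelial markers, 1253 and 1374 CPM, beside a median of 2304 CPM. These measures share peaks, such as those of *Erg* and *Egfl7* among the leading 10, so they are not independent. Within the nuclei the share ran from 0% through a median of 2.35% to 8.28%, and 4 of 351 nuclei had no count in these peaks. The share of counts in 5369 peaks led by a lymphocyte cluster was 1.14% ± 0.321 in VEC libraries. It was 9.52% in B cells, 3.43% in CD8 T cells, 2.9% in T cells and 2.75% in CD4 T cells, whose own peaks are in the set. Among the other clusters it ran from 0.673% in beige adipocytes to 2.42% in macrophages. White adipocytes had 0.758%, VSMCs 0.857%, APC2 0.882%, APC1 1.02% and dendritic cells 1.74%.

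**Figure D3:**
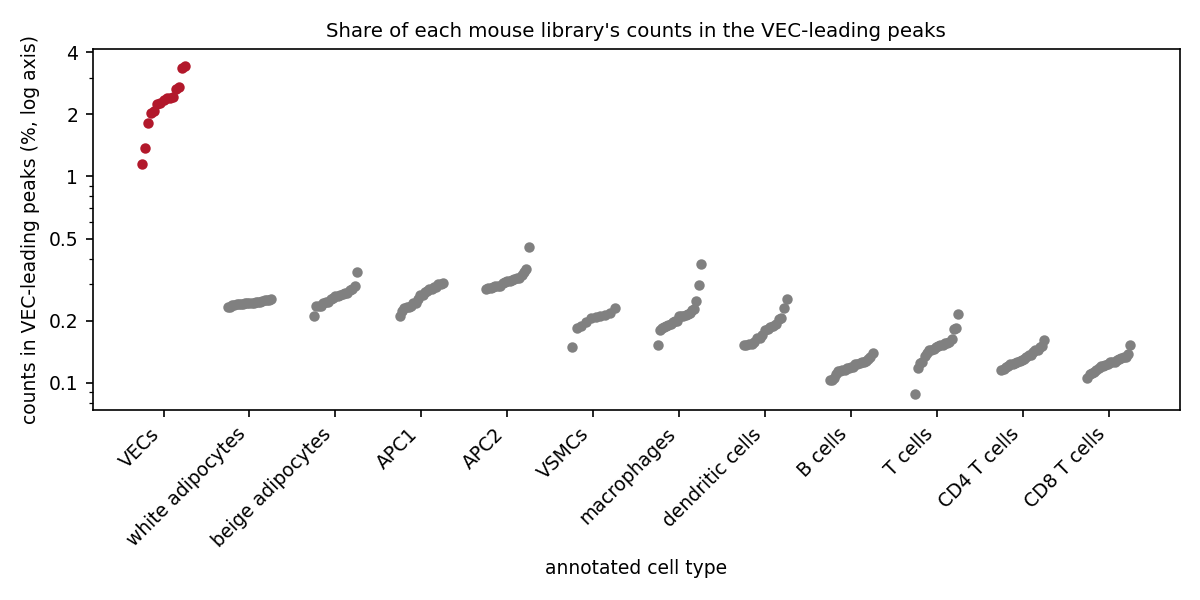
Percentage of the counts of each mouse library (at least 10 nuclei) that fall in the 518 VEC-leading peaks, on a log axis, by annotated cell type. The 15 VEC libraries spread between 1.15% and 3.44%. The peaks were selected for being higher in these libraries, so the gap to the other types is fixed by the choice.

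The sequences of VEC-leading peaks were searched for 11 motifs as exact letters, on both strands, in the 300 bases centred on the peak. Sequence was not used to choose the peaks, and the shares are given as a description. The SOX motif AACAATGG was in 5.02% of VEC-leading peaks (26 of 518), in 1.05% of all peaks and in at most 1.51% of the leading peaks of any other cluster. It was also in 4.82% of the VEC-leading peaks over 2000 bases from a transcript start and 1.12% of all such peaks. The FOX-ETS motif AACAGGAA was in 12.4% of VEC-leading and 4.57% of all peaks, but the leading peaks of CD4 T cells held it at 13.1%. The ETS motif CAGGAAGT was in 9.85% of VEC-leading peaks, 5.18% of all peaks and 19.6% of CD4 T cell peaks. With CCGGAAGT, these 3 ETS forms were in 21% of VEC-leading and 9.54% of all peaks, against 29.7% of CD4 T cell, 18.9% of T cell and 18.3% of CD8 T cell peaks. AACAGGAA and CAGGAAGT overlap by 6 letters, as in the first *Kdr* region printed above.

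The GATA, KLF and TEAD motifs were also in a larger share of VEC-leading peaks than of all peaks, but for KLF and TEAD another cluster had a larger share still. The GATA motif AGATAAGG was in 2.32% of VEC-leading and 1.03% of all peaks, against up to 2.06% in another cluster (T cells). The KLF motif GGGTGTGG was in 5.79% and 3.11%, with 6.64% in CD8 T cell peaks, and the TEAD motif ACATTCCA in 3.47% and 1.74%, with 4.62% in APC2 peaks. AP-1 (TGANTCA, 12.5% and 12.3%), NR2F (AAAGGTCA, 2.9% and 2.65%), RBPJ (CGTGGGAA, 0.579% and 0.587%) and the CTCF core (AGGGGGCG, 1.74% and 1.73%) were about as common as in all peaks. In the other 6792 peaks open in at least 20 VEC nuclei, mostly near starts, these 4 were in 4.39%, 0.883%, 1.33% and 8.63%. Over 2000 bases from a start they were in 13.5%, 3.81%, 0.508% and 0.761% of VEC-leading peaks. The other peaks open in VECs at that distance held them at 10.5%, 2.57%, 1.2% and 2.66%. In 32851 RefSeq promoters of the same length, the SOX motif was in 1.05%, FOX-ETS in 2.65% and RBPJ in 0.734%. A match does not show binding, and no match says only that these letters are not in the window.

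**Figure D4:**
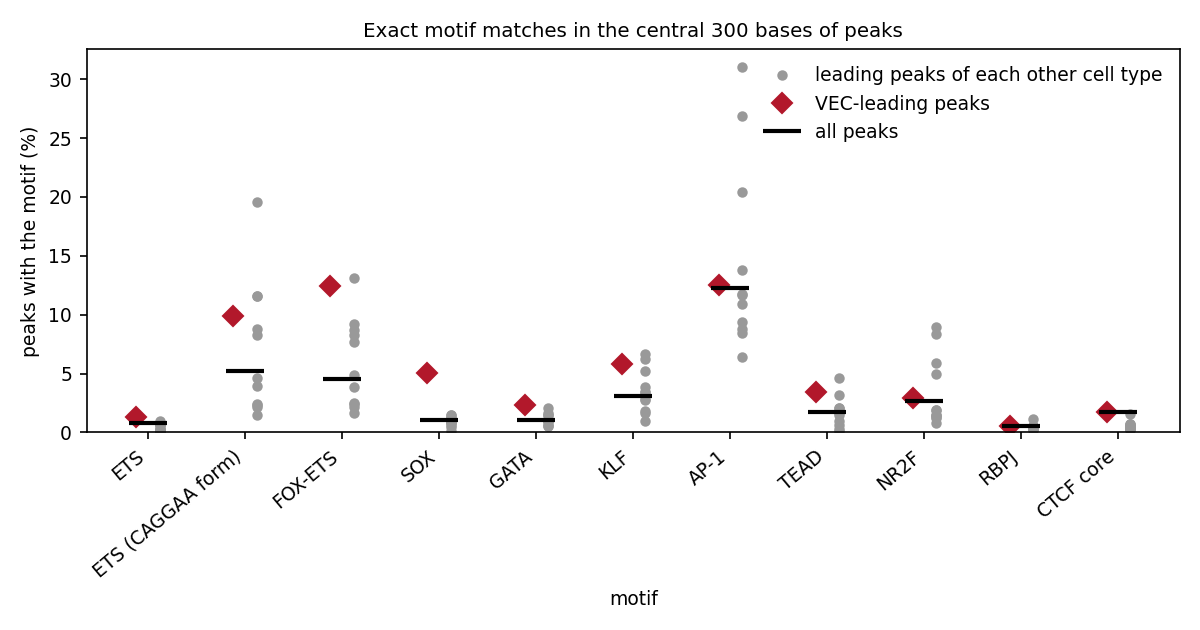
Percentage of peaks with at least 1 exact match to each motif in the 300 bases centred on the peak, for VEC-leading peaks (red diamonds), the leading peaks of each other cell type (grey points) and all peaks (black bars). The SOX motif is in 5.02% of VEC-leading peaks and in at most 1.51% for another cell type, whereas the CAGGAAGT and FOX-ETS points of CD4 T cells lie above those of VECs.

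Whether VECs became more abundant after cold or CL was examined over the 21 mice. A share of nuclei moves with the other cell types of the mouse, so more VECs and fewer lymphocytes cannot be told apart from it. The 3 day0RT mice had 0.445%, 0.908% and 0.306% VECs. After 1 day of cold the mice had 0.86%, 1.31% and 0.813%, and after 3 days 2.51%, 1.1% and 0.774%. The day1C mice thus overlapped the range of day0RT with 2 of 3 values, and the high day3C value was that of a mouse with few lymphocytes. After 7 days of cold the values were 0.406%, 0.649% and 1.14%. After CL they were 0.216%, 1.19% and 4.77% at day 1 and 1.1%, 2.17% and 1.06% at day 3, with 1.14%, 0.345% and 0.822% at day 7. Only the day3CL mice were all above the highest day0RT mouse. The lowest and the highest mouse of the series were both in day1CL, with 3 VEC nuclei of 1386 (exact 95% interval 0.0447% to 0.631%, counting error only) and 53 of 1111 (3.59% to 6.19%).

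No change in the VEC share passed the threshold. The 18 treated mice had 1.24% ± 1.05 and the 3 day0RT mice 0.553% ± 0.315 (SD). With edgeR's quasi-likelihood test over the numbers of nuclei, the treated groups were higher than day0RT by 1.07 ± 0.70 (log2, SE; adjusted p = 0.411), when 1 of the 12 cell types (8.33%) passed. Of the treated mice 10 of 18 were above the highest day0RT mouse and 1 was below the lowest. The exact two-sided permutation test gave p = 0.105. By group the log2 differences from edgeR were 0.85 (day1C), 1.40 (day3C), 0.41 (day7C), 1.88 (day1CL), 1.38 (day3CL) and 0.48 (day7CL), with adjusted p from 0.231 (day1CL) to 0.932. With 1 mouse left out they ran from 0.56 to 1.38 (day1C), 0.76 to 1.93 (day3C) and −0.07 to 0.95 (day7C). For CL they ran from 0.36 to 2.42 (day1CL), 0.97 to 1.91 (day3CL) and 0.07 to 1.02 (day7CL). With only the nuclei of at least 1000 counts they were 1.55, 2.02, 0.51, 2.67, 1.21 and 0.84 in the same order of groups (edgeR adjusted p from 0.0894 to 0.855). Over all alternatives other than leaving out 1 mouse, the day3CL value ran from 0.79 to 2.06. In the fit to all nuclei 3 of 72 such tests over all cell types (4.17%) passed. Exact tests of 3 mice against 3 cannot go below p = 0.1. Within replicate numbers, which mark separate sets of barcodes, 14 of 18 treated mice were above the day0RT mouse of the same number, with 3 of 3 in day1C, day3C and day3CL. With the number as a block the edgeR difference was 1.05 ± 0.75 for all treated groups (adjusted p = 0.522) and 0.84 ± 0.91 for day1C (adjusted p = 0.818). Without the nuclei with shared barcodes the difference was 0.99 ± 0.66 for all treated groups (edgeR, adjusted p = 0.423) and 1.92 ± 0.81 for day1CL (adjusted p = 0.163).

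The day1CL value rested on mouse 3, which had the fewest lymphocytes of the 3 day1CL mice. Without that mouse the log2 difference at day1CL was 0.36. Without the 3 mice with few lymphocytes it was 0.37 (edgeR, adjusted p = 0.766), and that of all treated groups was 0.66 (adjusted p = 0.354). VECs were also counted as a share of the nuclei that were not lymphocytes. On this total the treated mice had 3.5% ± 1.57 VECs and the day0RT mice 1.91% ± 0.881, and 11 of 18 treated mice were above the highest day0RT mouse (exact permutation p = 0.0737). On that total the edgeR difference was 0.82 ± 0.42 (SE; adjusted p = 0.119) for all treated groups and 1.44 ± 0.52 (adjusted p = 0.0931) for day1CL, and without the 3 mice 0.86 (adjusted p = 0.103) and 1.45 (adjusted p = 0.0897). All 3 day3C mice, at 3.6% to 4.41%, lay above the day0RT mice (1.06% to 2.82%), with p = 0.1 in the exact test, the smallest possible. The day3CL mice, at 2.53% to 4.52%, no longer all did, with 2 of 3 above the highest day0RT mouse (exact permutation p = 0.2).

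**Figure D5:**
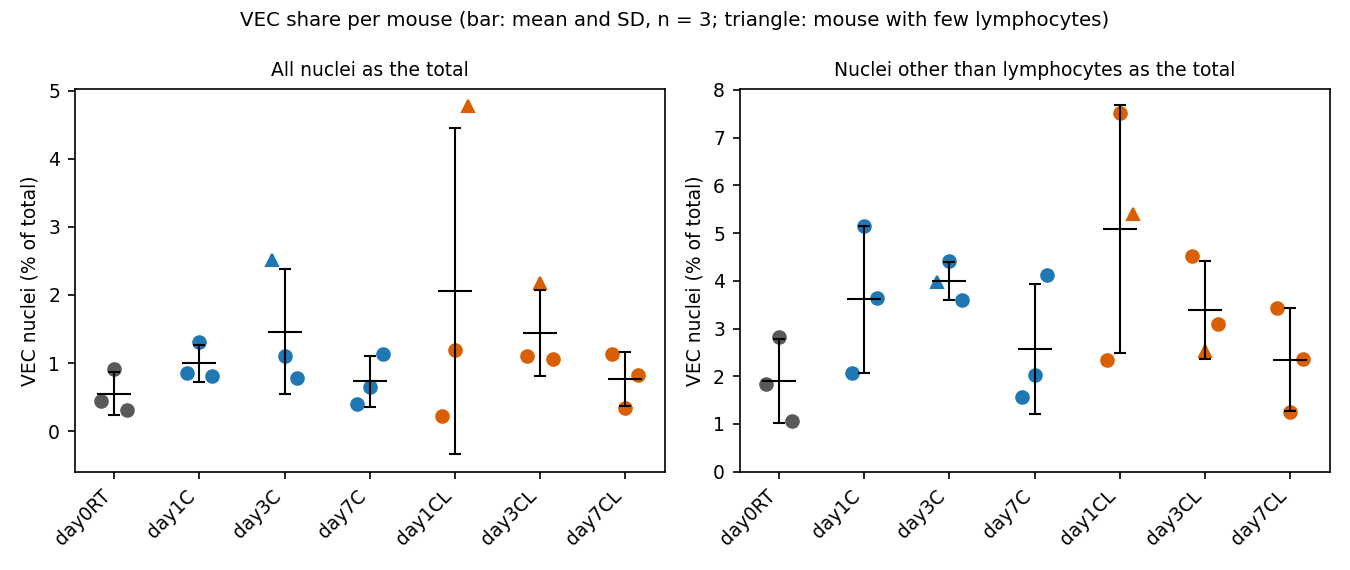
VEC nuclei as a percentage of all nuclei (left) and of nuclei other than lymphocytes (right) in each of 21 mice, by group (grey, day0RT; blue, cold; orange, CL), with the mean and SD of 3 mice. Triangles mark the 3 mice with the fewest lymphocytes. The highest share of all nuclei (4.77%, day1CL) belongs to one of them, and on the right axis it is 5.41%, below the 7.51% of another day1CL mouse.

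The share showed no trend with the day of treatment past the threshold. Over the 12 day0RT and cold mice Pearson's r was 0.03 and Spearman's rho 0.15, and over the 12 day0RT and CL mice they were −0.12 and 0.19, with an adjusted permutation p of 0.924 for all 4. The day0RT mice are shared by both. The 3 mice at day 7 are equally far from the median day, and leaving out a pair of them gave r from 0.08 to 0.40 in cold and from −0.08 to 0.07 in CL. Among treated mice alone rho was −0.37 in cold and −0.32 in CL, the opposite sign.

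Accessibility of genes within VECs was compared between treatments over mouse libraries, a contrast that the choice of nuclei did not use. Of the 15 libraries 7 were from cold, 7 from CL and 1 from day0RT (13 nuclei and 7209 counts, where 1 count equals 139 CPM). Contrasts with day0RT therefore rest on a lone library that is assumed to vary like the others. This library, day0RT mouse 2, had the highest sums of 3 marker lists among the 15. They were lymphatic (555 CPM, 4 counts), high endothelial venule (416 CPM, 3 counts) and dendritic (694 CPM, 5 counts). The fitted contrasts give each day group of a stimulus equal weight, whatever its number of libraries. The 1 day7C library thus weighs as much as the 3 of day3C. A fitted difference therefore need not match the means over the libraries of a stimulus. In edgeR's test of 805 genes, 0 passed (0%) for cold against day0RT, for CL against day0RT and for CL against cold. At an unadjusted p under 0.05 there were 46, 51 and 32 genes, and DESeq2 called 0 with 26, 25 and 12. The median log2 change of all 805 genes was 0.28 and 0.29 against day0RT and 0.02 for CL against cold. Against day0RT, levels are to be read relative to this shift. Of the CL libraries, day1CL mouse 2 and day7CL mouse 1 had the lowest sums of endothelial markers of all 15, and their part in the contrasts was examined by leaving both out. Then 0 of 574 genes passed in each contrast, with 46, 53 and 57 at an unadjusted p under 0.05.

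For *Flt1* the cold libraries ran from 130 through a median of 266 to 419 CPM and the CL libraries from 149 through 357 to 582 CPM, while the day0RT library had 139 CPM from 1 count. The ranges of cold and CL overlapped, with 5 of 7 CL libraries inside the cold range, and the log2 difference of CL against cold was 0.13 ± 0.36 (SE; edgeR adjusted p = 0.997). *Pecam1* ran from 372 to 609 CPM in cold and from 244 to 866 CPM in CL, with 416 CPM in day0RT, with a fitted log2 difference of −0.13 ± 0.28 for CL against cold (edgeR adjusted p = 0.997). The mean CPM ran the other way, at 504 ± 208 in CL and 469 ± 74.5 in cold (SD, n = 7 each), so no direction can be read. The fitted value was 0.17 without day1CL mouse 2 and day7CL mouse 1, which had 244 and 307 CPM of *Pecam1*. They were left out for a low marker sum that includes *Pecam1*, so a rise was built into the choice. *Kdr* was under the filter on low counts and was not tested. Its libraries ran from 130 through 151 to 265 CPM in cold and from 0 through 129 to 320 CPM in CL. Summed over all nuclei of a condition, *Kdr* had 274 CPM in day0RT (exact Poisson 95% interval 118 to 539, 8 counts), 198 CPM in cold (146 to 261) and 147 CPM in CL (103 to 203). These intervals cover counting error only, and they overlap.

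The genes with the smallest p did not pass either. For CL against cold they were *Smad3*, *Kifc3*, *Prex1*, *Jak1* and *Vav2*. *Smad3*, which relays TGF-beta signals, ran from 68.5 through a median of 214 to 560 CPM in CL and from 377 through 488 to 696 CPM in cold, with a log2 difference of −1.01 ± 0.32 (SE; edgeR adjusted p = 0.37, from 0.113 to 1 over its alternatives). Of the 7 CL libraries 6 were below the lowest cold library. *Kifc3*, a minus-end kinesin, had 294 ± 130 CPM in CL and 70 ± 65.2 CPM in cold (SD, n = 7 each; log2 1.51 ± 0.48, edgeR adjusted p = 0.37). *Prex1* and *Vav2*, exchange factors for RAC GTPases, had log2 differences of −1.19 ± 0.38 and −1.10 ± 0.36, with 161 ± 47.7 CPM for *Prex1* in CL and 373 ± 144 CPM in cold (edgeR adjusted p = 0.37 and 0.375). *Jak1*, a cytokine receptor kinase, had 200 ± 133 CPM in CL and 411 ± 210 CPM in cold (edgeR adjusted p = 0.37). The size of these differences depended on single libraries. Without day7CL mouse 1 the fitted log2 difference was −3.10 for *Jak1* and −3.08 for *Vav2*, and without day3C mouse 1 it was 2.23 for *Kifc3* (edgeR adjusted p = 0.101, 0.147 and 0.151). Day7CL mouse 1 is one of the pair of libraries with the lowest endothelial marker sums. The day7CL library that then remained had no count of *Jak1* or *Vav2*, so the size of their fitted differences depends on the fit and is no bound.

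For cold against day0RT the smallest p belonged to *Fgf1*, *Stau1*, *Fgd5*, *Mtss1* and *2010315B03Rik*, and for CL against day0RT to *Abcd3*, *Ano6*, *Otulin*, *Macrod2* and *Slc38a10*. Their adjusted p (edgeR) were 0.766 and 0.635. *Fgf1*, a fibroblast growth factor, had 6 counts (832 CPM) in the day0RT library and from 43.5 to 151 CPM in the 7 cold libraries. *Fgd5*, an exchange factor of endothelial cells, had 694 CPM against a cold range of 0 to 214 CPM. *Mtss1* and *Ano6* had no count in the day0RT library. A floor of 3 counts in that library is 416 CPM, and the means were 530 CPM for *Mtss1* in cold and 559 CPM for *Ano6* in CL. As the zero is that of 1 mouse, no fold is given for the conditions. With libraries of at least 5 nuclei, which brings in all 3 day0RT mice, 2 of 307 genes (0.651%) passed for CL against day0RT. *Macrod2*, an ADP-ribosylhydrolase, had 738 ± 375 CPM in day0RT (SD, n = 3) and 162 ± 130 CPM in CL (n = 8), a log2 change of −2.15 ± 0.58, and *Cmah*, which makes N-glycolylneuraminic acid, 600 ± 181 CPM and 161 ± 89 CPM, a log2 change of −2.12 ± 0.56 (edgeR adjusted p = 0.0363 for both). Both were chosen after their values were seen, and their groups overlap for *Macrod2* but not for *Cmah*. Neither passed when the 3 mice with few lymphocytes were left out too (−1.85, edgeR adjusted p = 0.951, for *Macrod2* and −1.31, 0.977, for *Cmah*) or when the nuclei with shared barcodes were (0.192 for both). The last value is given without its log2 change, so it does not tell a smaller difference from fewer counts. In the 15 libraries of at least 10 nuclei, *Cmah* had a log2 difference of −1.38 (edgeR adjusted p = 0.74).

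Few genes of the pathways could be tested. Of the 5 VEGF receptors and co-receptors 3 were tested and 0 passed, with a median log2 change of 1.07 for cold and 1.20 for CL against day0RT, beside 0.28 and 0.29 for all genes. Both medians are the values of *Flt1*, which rest on 1 count in the day0RT library, and *Kdr*, which was not tested, had 277 CPM (2 counts) in that library and means of 177 CPM in cold and 134 CPM in CL. Of the TGF-beta and BMP genes 6 of 13 were tested and 0 passed, with medians of 0.96 and 0.71. For CL against cold the median was −0.34 beside 0.02, with 1 of 6 above 0 beside 429 of all 805 genes. Of the endothelial transcription factors 9 of 28 were tested and 0 passed, with medians of 0.47 and 0.24. Their CL against cold median was −0.32, with 1 of 9 above 0. Of the lipid uptake genes 4 of 16 were tested and 0 passed, with medians of 0.67 and 1.18. Here the CL against cold median was 0.28, with 4 of 4 above 0. The difference of these counts from all genes was not tested. No member of the VEGF ligand, angiopoietin, haemostasis, arterial or proliferation lists had enough counts for the test, so a change in them was not detectable at this depth.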

How the data were processed

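Per the labels and the study's methods, the authors aligned reads with Bowtie2 to mm10, removed duplicates per barcode, called peaks with MACS2 per cluster and merged them, removed nuclei with few reads, a low share of reads in peaks or a high Scrublet doublet score, and clustered with Signac. No doublet caller was therefore run here. They deposited a binary matrix of counts (189598 peaks by 32552 nuclei) with the mouse, group and cell type of each nucleus. The 4 GEO samples are sequencing lanes with no group, so mice and groups were taken from this table. The matrix does not keep the number of reads behind an entry.

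Counts were summed per mouse and cluster, and sums under 10 nuclei were left out. A protein-coding gene was given the peaks over its body or the 2000 bases upstream, and 3.43% of peaks fell on more than 1 gene. Peak coordinates are as the authors' file gives them. Clusters were compared by mean CPM with 1 CPM added and no test. Treatments were tested with edgeR 4.0.16 in R 4.3.3 (quasi-likelihood, TMM, filterByExpr, two-sided, Benjamini-Hochberg over all genes or cell types, threshold 0.05), with DESeq2 1.42.0 as the other tool, and exact or 100000-resample permutation tests with scipy 1.17.1. The study states that 3 batches were run independently, without saying which mice each held, and each replicate number has its own set of barcode ends, so the number was also fitted as a block. p-values measure the spread between these mice. Steps were run on simulated data. The simulated shares had a larger rise than seen here and a dispersion below the fitted 0.426. They therefore do not show what size of change the share test could find in these mice.

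The genes named are *Pecam1*, *Flt1* and *Kdr*, the 20 genes (at least 30 VEC counts) and 10 peaks (at least 20 VEC nuclei) with the largest ratio to the next cluster, members of the lists (1 listed marker is not reported here), and the 5 genes of smallest p per contrast when none passed. *Cmah* and *Fgfr2* were added after their values were seen, since they passed under an alternative. The cluster, its markers and the lists were chosen with earlier results of these data known. Alternatives were other totals, filters, pseudocounts, normalizations, tools, minimum nuclei, promoter peaks only, a replicate block and leaving out each mouse. Leaving out the 3 mice with few lymphocytes, or nuclei with barcodes shared between mice, and the replicate block for VEC shares were added after seeing the data.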

Additional observations from a re-analysis of the deposited data

Results flagged for a closer look

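The VEC share of nuclei of 2 mice stood far from the others of their treatment. In day3C mouse 1 it was 2.51%, when the next of the 9 cold mice had 1.31%. In day1CL mouse 3 it was 4.77%, when the next of the 9 CL mice had 2.17%. Chance marks about 1 in 20 such sets, and 12 were examined. Both are among the 3 mice with the fewest lymphocytes (36.8% and 11.9% of nuclei). Among nuclei that were not lymphocytes their VEC shares were 3.97% and 5.41%, and neither stood far from the others by the same measure.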

How the results depend on the processing

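No VEC share passed the threshold under any alternative run. With 1 mouse left out, the log2 difference from day0RT ran from 0.78 to 1.60 for all treated groups, from 0.36 to 2.42 for day1CL (0.36 without day1CL mouse 3) and from −0.07 to 0.95 for day7C (−0.07 without day7C mouse 3). Spearman's rho with day turned to −0.37 (cold) and −0.32 (CL) with treated mice only, and with 1 mouse left out it ran from −0.07 (without day0RT mouse 3) to 0.37 in cold and from 0.01 to 0.37 in CL. Calls among genes for CL against day0RT were 2 with at least 5 nuclei per library (*Macrod2*, −2.15, and *Cmah*, −2.12) and from 0 to 1 with 1 library left out. The 1 was *Fgfr2*, a fibroblast growth factor receptor (log2 1.33 without day7CL mouse 3, against 0.77 with it). This call compares 6 CL libraries with the 1 day0RT library (15 counts of *Fgfr2*), so it gives no spread for day0RT. Without the nuclei with shared barcodes, an alternative added after seeing the data like that without the 3 mice, there were 0 calls in each contrast (16, 17 and 16 of 224 genes at an unadjusted p under 0.05). The other 2 contrasts had 0 calls under every alternative run. *Pecam1* against day0RT turned to −0.09 (cold) and −0.13 (CL) with at least 5 nuclei, and to −0.11 (CL) when the 3 mice with few lymphocytes were left out too. For CL against cold it turned to 0.17 without the 2 libraries with the lowest sums of endothelial markers (added after seeing the data). *Pecam1* is part of that sum, so a rise was built into the choice. With 1 library left out *Pecam1* ran up to 0.06 (without day7CL mouse 1) and *Flt1* down to −0.01 (without day1CL mouse 3). The causes were not tested. Genes at least 2-fold above every other cluster fell from 66 to 25 of 3415 with promoter peaks only, and 5 of the 20 leading genes remained. Of the 10 leading peaks 4 remained with pooled counts and 5 with at least 5 nuclei. With the replicate number as a block there were 0 calls in each contrast (39, 48 and 25 genes at an unadjusted p under 0.05). The block also changed no call of the VEC share, on either total (adjusted p from 0.137 to 0.986). The deviations of same-numbered libraries from their group means had a median correlation of −0.03 over 22 pairs (from −0.18 to 0.09). A minimum of 20 nuclei left 1 library in each treated group and none in day0RT. It was therefore run with the days of a stimulus pooled, for CL against cold only (3 libraries each, added after seeing the data). This gave 0 calls of 816 genes (40 at an unadjusted p under 0.05). Without day0RT mouse 2 the contrasts with day0RT could not be made. Depth is a limit: most genes had under 30 counts over all VEC nuclei, and day0RT rests on 26 nuclei.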
